A study of Mus musculus with 2 samples.

Results

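Mir21a, Mir199a-1, Mir199a-2, Mir199b and Mir214 are microRNA genes that are often read as marks of fibroblasts and other mesenchymal cells, and they were chosen by name from the 2202 genes counted in the series. All 5 were found in both count tables. The tables come from microRNA sequencing of whole heart from 10-day-old male mice of the hybrid strain B6CASTF1/J, with 1 library per tissue sample and total RNA as the source. Both samples carry the same genotype, age and tissue labels and form a single group of 2 biological replicates, so no condition was contrasted. The labels list separate tissue samples under a shared donor record, and the spread between the libraries may therefore be partly technical. In bulk tissue a difference in the number of cells of a type cannot be told apart from a difference in RNA per cell, and no count here was assigned to fibroblasts or to any other cell type.

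A microRNA gene is transcribed as a longer RNA, cut to a hairpin and then to short arms, the 5p and 3p mature microRNAs. The seed, bases 2 to 8 of an arm, pairs with target messenger RNAs and lowers their output. miR-21 is best known in the heart from fibroblasts, where it is raised during fibrosis and represses inhibitors of growth signalling. miR-199a and miR-214 are made from Dnm3os, a noncoding RNA of the developing mesenchyme that runs antisense to the dynamin gene Dnm3, and the other miR-199 genes lie antisense to its paralogues Dnm1 and Dnm2.

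The mature arms are shown because what they share bears on what a gene count can hold. They were copied from RefSeq (GRCm38.p6, the assembly also called mm10), are written 5′ to 3′ and have the seed in capitals. Hairpins of all 5 genes matched the table.

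miR-21a-5p: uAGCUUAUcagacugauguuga
miR-21a-3p: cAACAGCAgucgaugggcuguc
miR-214-5p: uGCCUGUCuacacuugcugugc
miR-214-3p: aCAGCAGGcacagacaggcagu
miR-199a-5p: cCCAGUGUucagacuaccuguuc
miR-199a-3p: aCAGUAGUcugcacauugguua
miR-199b-3p: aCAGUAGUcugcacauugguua

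Both arms of Mir21a and both arms of Mir214 occurred in 1 of the 2202 counted hairpins, their own. The rest of the genome was not searched, so copies of an arm outside these hairpins are not known. miR-199a-5p occurred in 2 hairpins, those of Mir199a-1 and Mir199a-2. miR-199a-3p and miR-199b-3p are the same 22 bases, and that arm occurred in 3 hairpins, one for each miR-199 gene. Outside the members, the seed of miR-21a-5p was shared by miR-21c and the seed of miR-214-3p by miR-761, among the arms in the table.

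miR-21c: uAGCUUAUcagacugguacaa
miR-761: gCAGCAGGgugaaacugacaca

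Mir21c and Mir761 had 0 counts in both libraries, which allows up to 3 counts, or 0.800 CPM in replicate 1 and 0.476 CPM in replicate 2. CPM here are reads on the strand of the gene per 1000000 such reads over all microRNA genes. Mir21b, the remaining miR-21 gene, also had 0 counts in both. The longest stretch that the Mir21a hairpin shared with any other counted hairpin was 15 bases, with Mir21c, and that of Mir214 was 13 bases, with Mir302d. Of the miR-21 genes, counts were therefore found for Mir21a alone.

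Mir21a (ENSMUSG00000065455.1) lies on the minus strand at chr11:86584067-86584158 in mm10. There it overlaps an exon and an untranslated region of Vmp1 on the same strand, per the GENCODE M21 annotation. Vmp1 encodes a membrane protein of autophagy. Mir21a had 9274 counts in replicate 1 and 38758 in replicate 2, or 2474 and 6146 CPM, and was the most abundant member in both. It ranked 44th of all microRNA genes in replicate 1 and 29th in replicate 2. Its mean was 4310 ± 2597 CPM (SD, n = 2), so the libraries stood far apart for this gene.

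Mir214 (ENSMUSG00000065516.1) lies on the plus strand at chr1:162223368-162223477, within exons of Dnm3os and opposite to Dnm3. miR-214 is known to target the sodium/calcium exchanger of heart muscle. The gene had 4995 counts in replicate 1 and 10578 in replicate 2, or 1333 and 1678 CPM, with a mean of 1505 ± 244 CPM (SD, n = 2). It ranked 63rd and 54th, and its levels in the libraries were closer together than those of Mir21a.

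The 3 miR-199 genes were far lower. Mir199b (ENSMUSG00000092807.1) lies on the plus strand at chr2:32318460-32318569, opposite to an intron of Dnm1, and had 405 and 526 counts, or 108 and 83.4 CPM. Mir199a-2 (ENSMUSG00000070126.1) lies on the plus strand at chr1:162217814-162217923, within exons of Dnm3os, and had 72 and 233 counts, or 19.2 and 36.95 CPM. Mir199a-1 (ENSMUSG00000065547.1) lies on the minus strand at chr9:21496495-21496564, opposite to an intron of Dnm2, and had 1 count in replicate 1 and 2 in replicate 2. Mir199a-1 was thus below the limit of 3 counts in both libraries. The means were 95.7 ± 17.4 CPM for Mir199b and 28.1 ± 12.5 CPM for Mir199a-2 (SD, n = 2).

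**Figure D1:**
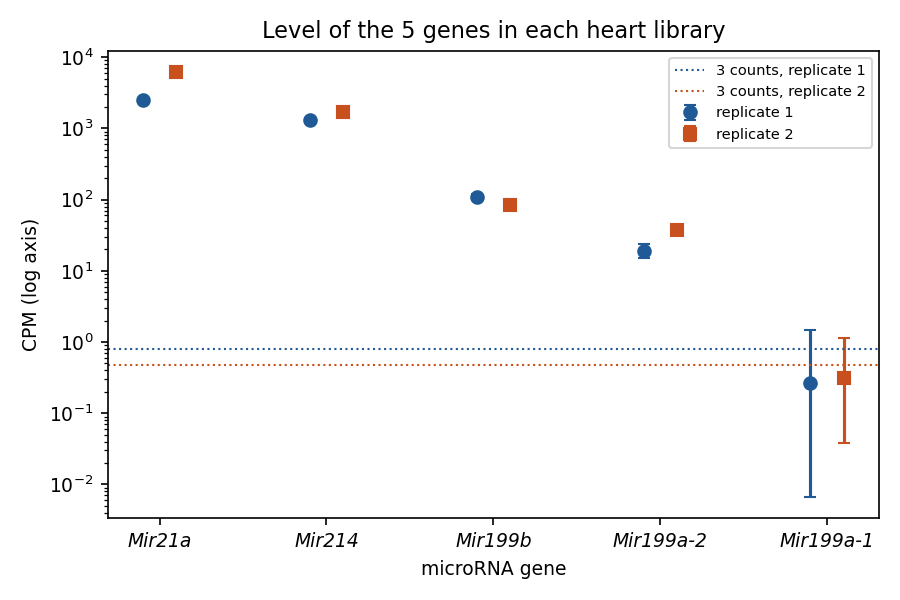
Level of each member in CPM on a log axis, with replicate 1 as circles and replicate 2 as squares, and bars for exact binomial 95% intervals, which cover counting error only. The order runs from Mir21a (2474 and 6146 CPM) down to Mir199a-1, whose points lie under the dotted lines at 3 counts.

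The order Mir21a, Mir214, Mir199b, Mir199a-2, Mir199a-1 was the same in both libraries, and no neighbours in that order had overlapping values across the libraries. A read of this kind spans a whole mature arm, so counts were compared between genes without a length, and the order of the pairs compared was the same per base of the gene. Mir21a exceeded Mir214 by a log2 ratio of counts of 0.89 in replicate 1 (95% interval from the exact binomial distribution 0.84 to 0.94), against 1.87 in replicate 2 (1.84 to 1.90), a mean of 1.38 ± 0.69 (SD, n = 2). The intervals of the libraries did not overlap, so this gap differed between them beyond counting error. With 2 libraries an exact sign-flip test of such a ratio cannot go below a two-sided p of 0.5, so none was run.

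A gene was called detected where each library gave it 10 counts or more. This held for 4 of the 5 members, beside 340 of all 2202 genes counted. Mir199a-1 was the member left out. With at least 100 counts in both libraries, 3 members remained, since Mir199a-2 had 72 counts in replicate 1. The 5 genes together made up 0.393% of counted reads in replicate 1 (95% interval 0.387% to 0.3998%) and 0.794% of those in replicate 2 (0.788% to 0.801%), with intervals from the exact binomial distribution. Most of this came from Mir21a, which made up 62.9% of the members' counts in replicate 1 and 77.4% in replicate 2. Mir214 made up 33.9% and 21.1%. The 3 miR-199 genes together took 0.0128% of all counts in replicate 1 (interval 0.0116% to 0.0139%) and 0.0121% in replicate 2 (0.0112% to 0.0130%), with intervals that overlap, although Mir199b and Mir199a-2 differed in opposite directions within that sum.

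The miR-199 hairpins are shown because their listed arms lie in stretches that recur between these 3 genes, while most of the remaining sequence does not. They are printed 5′ to 3′ with the arms that RefSeq lists for each gene in capitals.

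Mir199a-1: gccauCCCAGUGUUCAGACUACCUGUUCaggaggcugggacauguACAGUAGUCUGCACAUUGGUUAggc
Mir199a-2: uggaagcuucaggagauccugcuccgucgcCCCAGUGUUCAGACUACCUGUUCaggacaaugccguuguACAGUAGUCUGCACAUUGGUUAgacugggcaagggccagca
Mir199b: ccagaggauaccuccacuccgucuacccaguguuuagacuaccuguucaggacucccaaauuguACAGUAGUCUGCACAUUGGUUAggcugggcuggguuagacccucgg

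Around miR-199a-5p, Mir199a-1 and Mir199a-2 shared 27 bases, the arm and the 4 bases that follow it. Around the 3p arm, Mir199a-2 shared 27 bases with Mir199b, and Mir199a-1 shared 28 bases with Mir199b. On the 5p side, bases 26 to 48 of the Mir199b hairpin matched miR-199a-5p with 1 substitution, C10U, counted from 1 at the 5′ end of miR-199a-5p and written with its base first. Those 23 bases of Mir199b occurred in no other counted hairpin. A full-length 5p read of Mir199b therefore differs from the miR-199a genes, whereas a full-length 3p read is the same for all 3 genes.

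**Figure D2:**
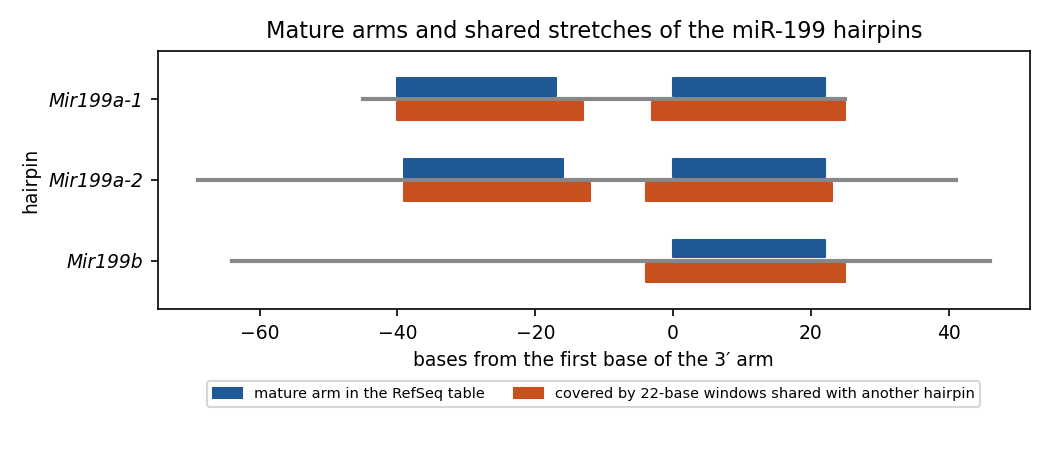
Map of the miR-199 hairpins in bases from the first base of the 3p arm, with the arms that RefSeq lists above each line and, below it, the stretches covered by 22-base windows found in another counted hairpin. Every listed arm lies inside such a stretch, and the 5p side of Mir199b holds none.

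The authors' tables keep reads with several mapping positions in a class of their own, outside the gene counts. That class made up 36.8% of the reads of replicate 1 and 48.1% of those of replicate 2. Reads that equal miR-199a-5p or the common 3p arm fit 2 or 3 of these hairpins, so the counts of Mir199a-1 and Mir199a-2 are uncertain, and so is the 3p part of Mir199b. The level of mature miR-199a and miR-199b in the tissue was not measured by these gene counts. How many reads of that class came from miR-199 was not tested. Among 307 detected genes with an entry in the sequence table, 6 had every listed arm in several counted hairpins. Mir199a-2 and Mir199b were among them. For Mir199b only the 3p arm is listed. Its place among the 6 rests on that, since the unlisted side of its hairpin occurred in no other counted hairpin. The highest of those 6 genes had a mean of 1030 CPM, whereas the other 301 genes reached 95859 CPM, and the medians were 61.9 and 67.7 CPM. Genes that were not detected, such as Mir199a-1, did not enter, and the 301 genes needed only 1 arm of their own. These medians therefore cannot show how far a shared arm lowers a gene count.

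Mir199a-2 and Mir214 lie 5444 bases apart in the same host transcript, yet their counts differed widely. Mir214 had 69.4 times the counts of Mir199a-2 in replicate 1 and 45.4 times in replicate 2. The log2 ratio of Mir199a-2 over Mir214 was -6.12 in replicate 1 (95% interval -6.47 to -5.78, exact binomial), whereas it was -5.50 in replicate 2 (-5.70 to -5.32), a mean of -5.81 ± 0.43 (SD, n = 2). The gap was thus much larger than its spread between the libraries. Among the counted hairpins, both arms of Mir214 are found in its own alone, while both arms of Mir199a-2 recur. What part this had in the gap was not tested.

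Within the miR-199 genes, Mir199b exceeded Mir199a-2 by a log2 ratio of 2.49 in replicate 1 (95% interval 2.13 to 2.87, exact binomial), against 1.17 in replicate 2 (0.95 to 1.40). Mir199a-1 over Mir199a-2 gave -6.17 in replicate 1 (interval -11.5 to -3.65) and -6.86 in replicate 2 (-9.92 to -5.00). The miR-199a genes encode the same mature arms, and only reads reaching past the shared stretches separate them. Mir199b has a 5p side found in no other counted hairpin, whereas both arms of Mir199a-2 recur, so the counts of Mir199b and Mir199a-2 may hold unlike reads.

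The libraries were then set against each other for every detected gene with an exact two-sided binomial test on counts after TMM scaling, adjusted by Benjamini-Hochberg over all 340 genes. This compares 2 libraries against counting error and says nothing of a condition. A gene passed at an adjusted p under 0.05. Mir21a passed and was 2.80-fold higher in replicate 2 (log2 ratio 1.48, interval 1.45 to 1.52). Mir199a-2 was 2.16-fold higher (log2 ratio 1.11, interval 0.73 to 1.52, adjusted p = 4.04e-09 by the exact test). Mir214 was 1.42-fold higher (log2 ratio 0.50, interval 0.46 to 0.55, adjusted p = 1.01e-94 by the exact test).

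Mir199b had the opposite sign, with a log2 ratio of -0.20 (exact 95% interval -0.39 to -0.01). Its adjusted p was 0.0495 by the exact test and ranged from 0.000199 to 0.0938 over the alternatives tried. Its call was lost with DESeq2 size factors, with no filter on low counts and with reads on both strands. The lower value of Mir199b in replicate 2 is therefore at the edge of counting error.

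**Figure D3:**
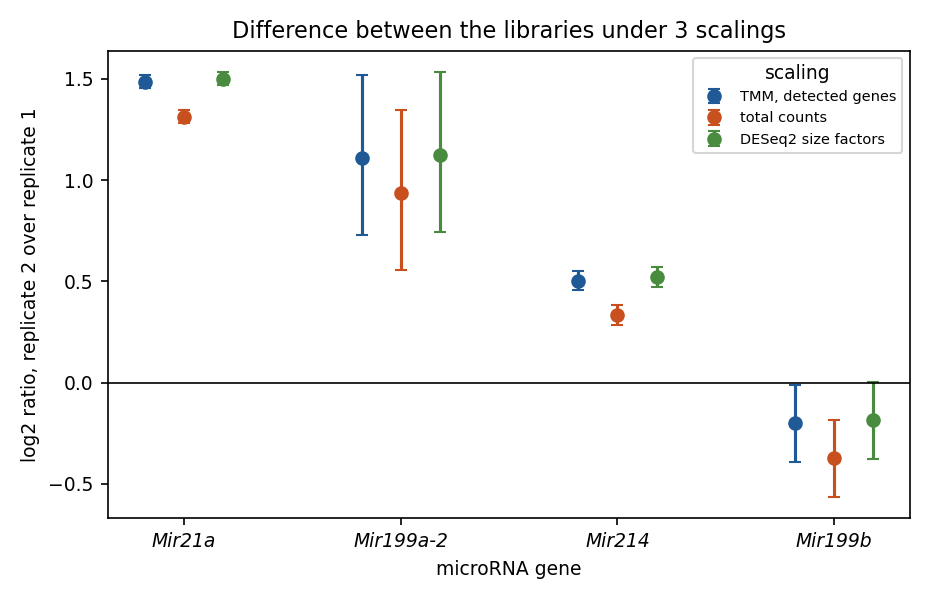
Log2 ratio of replicate 2 over replicate 1 for the 4 detected members under 3 scalings of the libraries, with exact 95% intervals. Mir21a, Mir199a-2 and Mir214 lie above 0 under each scaling, and the interval of Mir199b reaches 0 with DESeq2 size factors.

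All 4 detected members passed this test, against 71.2% of all genes tested, so passing it is common in this pair of libraries. Of them, 3 were higher in replicate 2, against 35.0% of all genes, and 1 was lower, against 36.2%. A called difference of at least 2-fold toward replicate 2 was found for Mir21a and Mir199a-2, against 10.6% of all genes. For Mir199a-2 this depended on the scaling, since its log2 ratio was 0.94 with total counts, which is below 2-fold. The members' median log2 ratio was 0.81, beside -0.02 over all genes tested, with an SD over all genes of 0.92. The absolute log2 ratio of Mir21a stood at percentile 90.6 of the 340 genes, that of Mir199a-2 at 82.4, that of Mir214 at 47.1 and that of Mir199b at 18.8. Mir214 and Mir199b thus differed between the libraries by less than the typical gene.

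**Figure D4:**
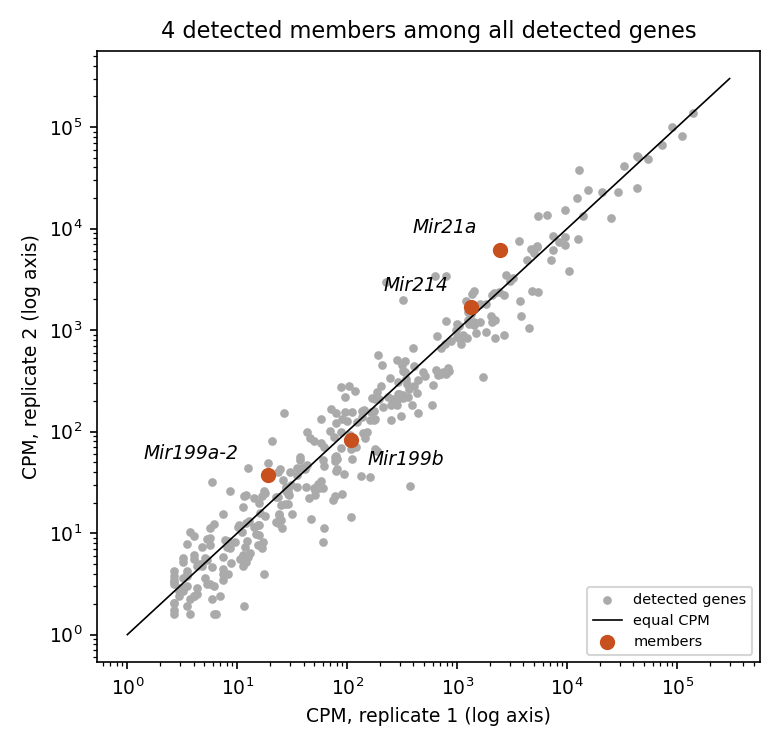
CPM in replicate 2 against CPM in replicate 1 for the 340 detected genes, both on log axes, with the line of equal CPM and the 4 detected members marked. Mir21a (2474 and 6146 CPM) and Mir199a-2 (19.2 and 36.95 CPM) lie above the line, and Mir214 and Mir199b lie near it.

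The share of reads with several mapping positions differed between the libraries, so the members were also expressed per 1000000 of all reads, mapped or not. Mir21a had 1050 in replicate 1 and 2275 in replicate 2 on that scale, 2.17 times as much. Mir214 had 565 and 621, Mir199a-2 had 8.15 and 13.7 and Mir199b had 45.8 and 30.9. The direction of each of these 4 genes between the libraries was thus the same on both scales.

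Reads on the strand opposite to a member were almost absent. Mir21a had 1 such read in replicate 1 and 0 in replicate 2, and the other members had 0 in both, which allows up to 3 counts. No read on the strand of the dynamin genes was counted at the Mir199 and Mir214 hairpins.

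Each detected member was compared with the other detected genes by the Euclidean distance of their log2 CPM in the 2 libraries, and 3 nearest genes were taken. With 2 libraries this likeness says only that levels are near each other. Nearest to Mir21a was Mir499, a microRNA of heart muscle hosted by a myosin gene, at a distance of 0.64 (3678 and 7542 CPM), then Mir27b at 0.84 and Mir17 at 0.86. No gene lay within 0.5 of Mir21a. Nearest to Mir214 were Mir10a, which sits in a Hox cluster, at 0.18, Mir185 at 0.22 and Mir145a, a smooth muscle microRNA, at 0.24. Mir199a-2 was nearest to Mir370 at 0.31 and to Mir547 and Mir494, both at 0.40, and Mir370 and Mir494 belong to the imprinted Dlk1-Dio3 region. Mir199b was nearest to Mir5099 at 0.17, Mir184 at 0.29 and Mir598 at 0.30.

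Other microRNAs with a reported part in fibrosis were called in both directions, as were 35.0% (higher) and 36.2% (lower) of all genes tested. The list of genes reported to promote it held 9 genes besides the members, all detected, of which 4 were higher and 5 lower in replicate 2, with a median log2 ratio of -0.09. Its leading genes were Mir130a, with 5371 and 13314 CPM, and Mir22, with 7113 and 4881 CPM. The list of genes reported to restrain fibrosis held 16 genes, of which 14 were detected. Of these, 4 were higher, 5 were lower and 5 did not pass, with a median log2 ratio of 0.25. It was led by Mir15b, with 1834 and 965 CPM, and Mir15a, with 1048 and 1097 CPM. Reads with several mapping positions are outside these counts, so the order within either list is one of gene counts only. How many of those reads came from genes of the lists was not tested.

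Markers of other cell types are given beside the members. Reads with several mapping positions are outside these gene counts, so the shares of the lists do not rank the cell types. Over 6 such lists, 19 of 25 detected genes passed the test (76.0%), beside 71.2% of all genes, with 14 higher and 5 lower in replicate 2. The cardiac muscle list took 0.832% of the counts of replicate 1 and 1.25% of those of replicate 2, with 3 higher and 1 lower of the 6 genes detected out of 7. Its leading genes by mean CPM, Mir499 and Mir208a, had log2 ratios of 1.21 and -1.31, and Mir208a was the gene called lower. Mir208b, with 794 and 3444 CPM, had a log2 ratio of 2.29 and was above Mir208a (1362 CPM) in replicate 2. Mir1a-2 had a log2 ratio of 1.37. In replicates 1 and 2, Mir1a-1 had 13 and 19 counts, Mir1a-2 162 and 628, Mir133a-1 10 and 27 and Mir133a-2 2 and 4. How many reads with several mapping positions came from these miR-1a and miR-133a genes was not tested. The smooth muscle list took 4.48% and 5.33%, led by Mir143 and Mir145a, with both of its 2 genes higher. The endothelial list took 8.97% and 10.1%, led by Mir126a and Mir221, with 2 of 3 genes higher and 1 lower. Leukocyte genes had 0.295% and 0.304%, with Mir155 and Mir146 in the lead and 3 of 5 genes higher and 1 lower. The epithelial list took 0.0468% and 0.0543%, led in mean CPM by Mir200c and Mir200b, with 3 of 5 genes higher. Mir200b had 12.5 and 43.5 CPM, and in replicate 1 other genes of the list besides Mir200c were above it. The erythroid list took 1.02% and 0.886%, led by Mir451a and Mir144, and of its 4 genes 1 was higher and 2 were lower. No gene of these lists was at 0 in both libraries. What part cell composition had in the higher Mir21a of replicate 2 was not tested.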

How the data were processed

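Small RNA of 2 heart samples was sequenced, and each deposited table holds raw counts of reads for microRNA genes, unnormalized and without a header. Build mm10 and annotation GENCODE M21 are stated in text deposited beside the tables, while aligner and counter were not given in the sources used here. The columns were read from their values as both strands, gene strand and opposite strand, and the gene strand was used (3748432 and 6305782 reads in replicates 1 and 2). Entries that name no gene (reads with several positions, unmapped, or outside genes, together 57.6% and 63.0% of reads) stayed out of totals.

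TMM factors (edgeR 4.0.16) came from the detected genes (10 counts or more in each library), since factors from all genes placed the zero less well on simulated data. Log2 ratios used a prior of 0.5 counts and the 0.05 threshold. Compared were total counts, DESeq2 1.42.0 size factors, no filter, both strands, other minimum counts, all reads as the total, counts per base and each library alone, and, chosen after seeing the data, no prior and TMM from all genes. Exact intervals (SciPy 1.17.1) cover counting error only, since amplified reads are not independent molecules.

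The members and lists were chosen with earlier results of these data known. Named genes are the members, Mir21b, Mir21c, 3 nearest genes per detected member and the 2 genes of each list with the highest mean CPM. Mir761 and Mir302d were added for their sequence, and the other genes of the cardiac muscle list to complete it, after the values were seen. All list entries were matched, 2 of the 4 erythroid ones through a synonym.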

Additional observations from a re-analysis of the deposited data

How the results depend on the processing

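The log2 ratios of Mir21a, Mir214 and Mir199a-2 between the libraries kept their direction and call under each of the 6 alternatives. Mir199b lost its call at -0.19 with DESeq2 size factors, at -0.20 with no filter on low counts, where more genes share the adjustment, and at -0.19 with reads on both strands. Scaling by total counts moved all ratios by 0.17 on the log2 scale and the split of calls over all genes from 119 higher and 123 lower to 97 and 146. Per 1000000 of all reads, which enlarges the total by construction, mean levels fell to 1662 for Mir21a, 593 for Mir214, 38.4 for Mir199b, 10.9 for Mir199a-2 and 0.115 for Mir199a-1, and the summed share to 0.231%. With reads on both strands, whose total is smaller, Mir21a had a mean of 5934, Mir214 2066, Mir199b 131, Mir199a-2 38.6 and Mir199a-1 0.401 CPM, all higher than in the main setting. Per base of the gene, Mir199a-1 over Mir199a-2 had a log2 ratio of -5.86. With 1 library left out, the other library's own value stands, from 2474 to 6146 CPM for Mir21a and from 0.393% to 0.794% for the summed share, and no ratio between libraries could be formed. No paired analysis was possible because both libraries belong to 1 group. Mir199a-1, with under 3 counts in each library, has the widest counting intervals of the members relative to its level.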
